A study of Mus musculus with 30 samples.

Results

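The genes described here are 45 genes of the urea cycle and of amino acid catabolism in mouse liver, taken as a list of gene names from a count table of 57180 genes. They were not chosen by a measured value, but the list was drawn up with earlier results of these data known. All 45 were found, and all 45 passed the filter on low counts in each fit, with at least 32 counts in every library. They were 6 urea cycle enzymes, 6 of glutamine, glutamate and transamination, 4 of tyrosine breakdown, 5 of tryptophan, 4 of histidine, 6 of glycine and serine, 8 of sulfur and methyl group metabolism, and 6 of proline, lysine and branched-chain amino acids.

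RNA was sequenced from livers in a prevention study and a treatment study of UB-NPs, which the labels name only by this abbreviation. For 10 weeks of daily oral gavage, the prevention study kept NC mice on a standard diet with water, MC mice on a high-fat diet with water, and UB mice on a high-fat diet with 60 mg/kg of UB-NPs a day. The treatment study compared NFD mice, on a standard diet throughout, with obese mice on a high-fat diet for 10 weeks before dosing. For a further 8 weeks the NFD mice received water, and the obese mice stayed on their diet and received water (HFD) or 60 mg/kg of UB-NPs a day (Uro). Each of the 6 groups had 5 libraries, drawn from 10 mice a group in the design. The labels do not tie libraries to animals: 1 mouse per library was assumed, and p-values measure the spread between libraries. Strain, sex and age are not given in the sources used here. The albumin gene Alb, which marks hepatocytes, was at 7260 to 29628 CPM in the 30 libraries.

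Amino acids that are not used for protein lose their nitrogen in the liver, mostly through transaminases, which pass it to glutamate. Glutamate dehydrogenase and glutaminase release ammonia, and the urea cycle of periportal hepatocytes turns it into urea. The carbon skeletons go on to glucose, ketone bodies or the citric acid cycle. Many of these enzymes are induced by glucagon, glucocorticoids and a protein-rich diet and lowered by insulin.

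Levels are in CPM, read counts scaled to a common library size by TMM factors within a study. Changes are log2 fold changes with their standard error from edgeR's quasi-likelihood test. A gene is said to have risen or fallen where the Benjamini-Hochberg adjusted p over all genes tested was under 0.05. CPM from the prevention and treatment studies were scaled separately and are not compared.

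Both high-fat diets went with lower levels in most of these pathways. In MC livers, 22 of the 45 genes fell against NC and 0 rose, where 5.53% of all 13498 genes tested fell. Their median log2 fold change was -0.54, against 0.03 for all genes tested. Obese HFD livers had 26 of the 45 lower than NFD and 0 higher, where 5.96% of all 14163 genes tested fell, and the median was -0.84 against 0.03. Of the genes lower in MC, 19 were also lower in HFD, which is 86.4% of the MC genes and 73.1% of the HFD genes. These comparisons share no library. In bulk tissue, fewer cells of a type and less RNA per cell cannot be told apart.

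With UB-NPs given from the start of the diet, 1 of the 45 genes was called, and a missed call does not show that a gene was unchanged. Gldc, the glycine decarboxylase of the glycine cleavage system, fell further in UB against MC, where 0.4% of all genes fell. In all, 12 of the 45, Gldc among them, had an unadjusted p under 0.05, and the median was 0.10 against 0.00 for all genes. These 12 went both ways. Changes were below 0 for Gldc, Amt, Bhmt and Aass, and above 0 for Ass1, Asl, Gls2, Got1, Sds, Gnmt, Aldh4a1 and Bckdhb. The share of all genes with such an unadjusted p is not given here, so the count has no background. Given to obese mice, UB-NPs went with 18 of the 45 genes higher in Uro than in HFD and 1, again Gldc, lower. Of all genes tested, 15.3% rose and 11.7% fell in that comparison, so a call of either kind was common. The median of the 45 was 0.55, against -0.08 for all genes. HFD minus NFD and Uro minus HFD share the HFD libraries, so an unusual HFD level moves both in opposite directions.

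**Figure D1:**
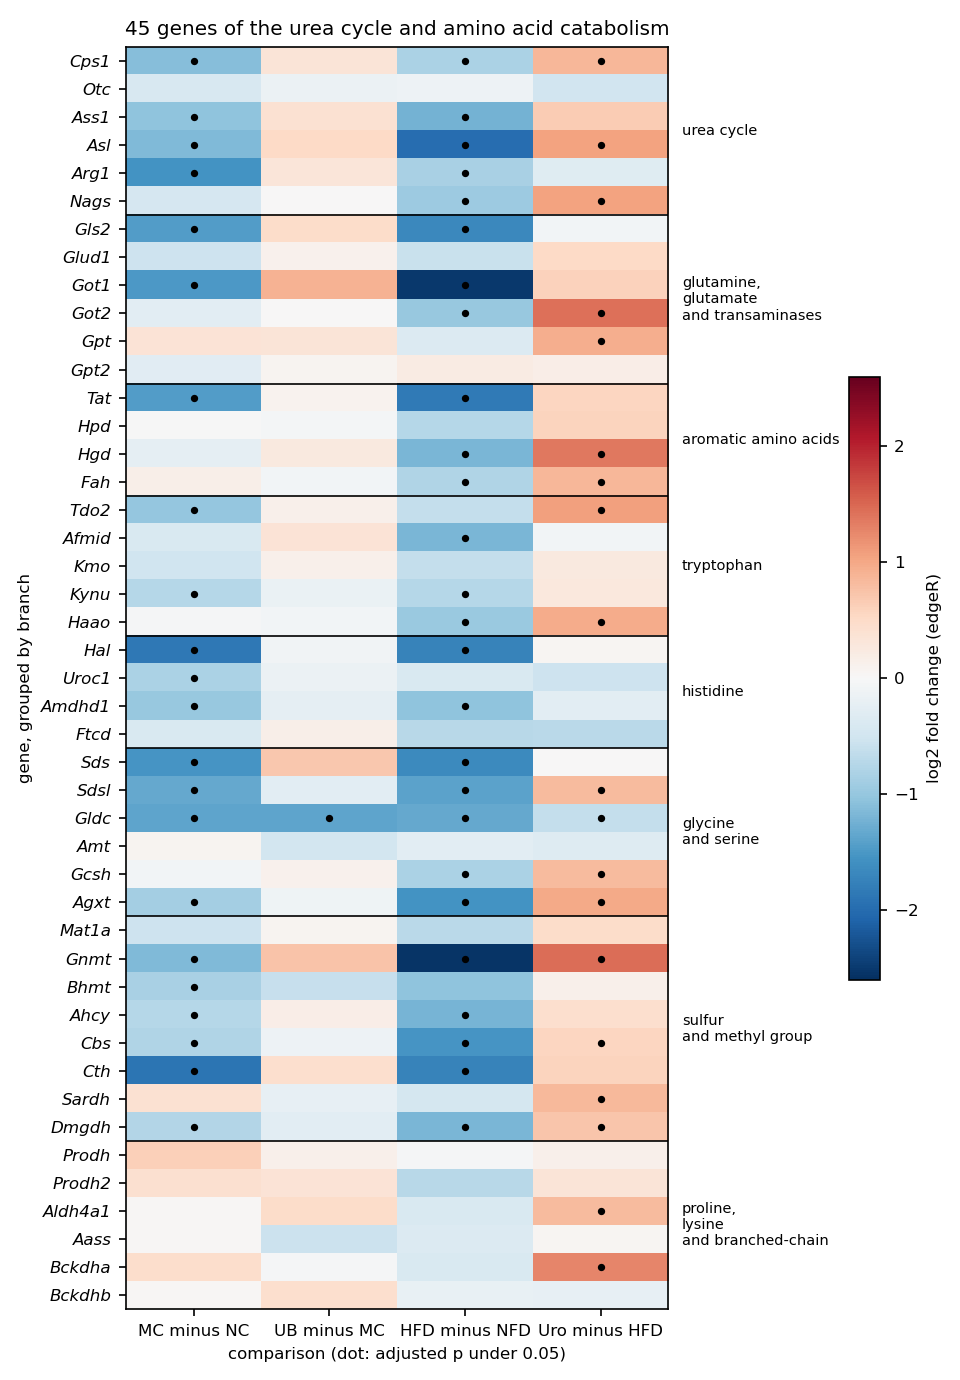
Log2 fold changes (colour) of the 45 genes in rows, grouped by branch, in 4 comparisons in columns, with a dot where the adjusted p was under 0.05. The columns MC minus NC and HFD minus NFD hold 22 and 26 dots, all on blue cells, UB minus MC holds 1 and Uro minus HFD holds 19.

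The direction in Uro minus HFD depended on how libraries were scaled. Counts of mitochondrially encoded genes took 66.1 ± 9.68% of an HFD library and 18.8 ± 2.82% of a Uro library (SD, n = 5 each), a difference of -47.4 percentage points with no overlap (exact two-sided permutation p = 0.00794, which no arrangement of 10 libraries can undercut, and 0.0159 adjusted over the 6 comparisons). The shares were 67.2 ± 4.42% in NC, 50.9 ± 12.9% in MC, 44.96 ± 4.02% in UB and 68.4 ± 10.4% in NFD (SD, n = 5 each). The difference was -16.3 points in MC minus NC (adjusted p = 0.0714 by exact permutation, 0.0476 unadjusted) and -2.29 points in HFD minus NFD (adjusted p = 0.73 by exact permutation). With the deposited TPM, which include mitochondrial genes in their total, 36 of the 45 were higher in Uro and 0 lower, and the median of all genes tested was 0.55. After rescaling TPM to the genes outside mitochondria, a setting chosen after seeing the data, 4 were higher and 10 lower, and the median of all genes was -0.51. Set against the median of all genes, the median of the 45 lay 0.63 above it with TMM, 1.01 above with TPM and 0.31 above with the rescaled TPM. In Uro minus NFD it lay -0.49 from it with TMM, 0.12 with TPM and -0.73 with the rescaled TPM, and in UB minus NC -0.53, -0.07 and -0.59. By call alone, TPM gave 4 higher and 3 lower in MC minus NC, 17 higher and 1 lower in UB minus NC, 0 higher and 3 lower in HFD minus NFD, and 26 higher and 0 lower in Uro minus NFD. The rescaled TPM gave 33, 21, 23 and 29 lower in these 4 comparisons, with 1 higher in UB minus NC and 0 in the others. Here "rose" and "fell" are calls on counts with TMM scaling. With the mitochondrial share as a covariate, 0 of the 45 were called in Uro minus HFD, 16 in MC minus NC and 27 in HFD minus NFD. Since the share separated Uro and HFD completely, its effect and that of UB-NPs cannot be told apart. The share also separated UB from NC (-22.2 points) and Uro from NFD (-49.7 points) completely (adjusted p = 0.0159 each by exact permutation). In UB minus NC and Uro minus NFD, its effect thus cannot be told apart from that of the diet with UB-NPs.

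**Figure D2:**
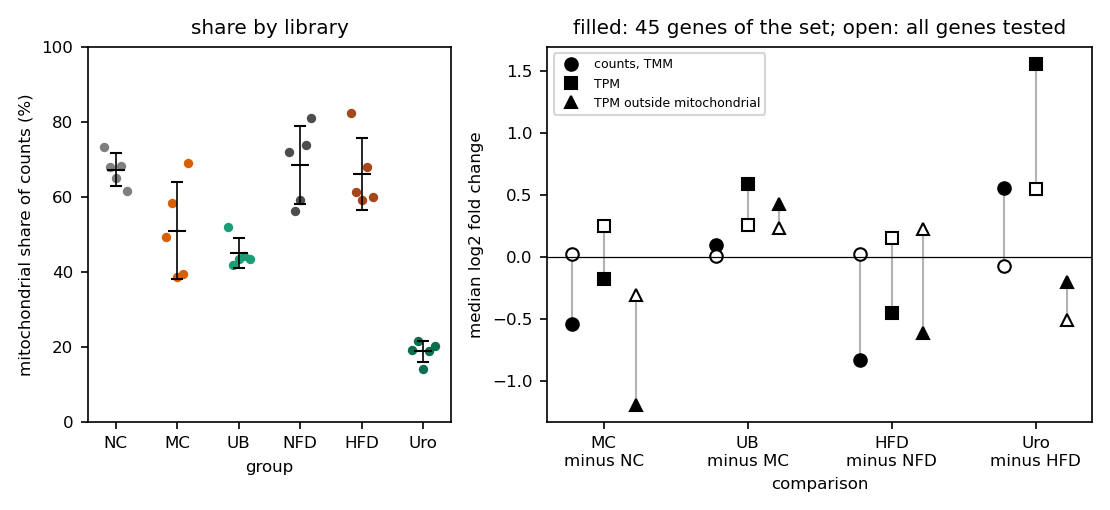
Left, mitochondrial share of counts (%) in each library (points) by group, with mean and SD over 5 libraries. Right, median log2 fold change of the 45 genes (filled) and of all genes tested (open) in 4 comparisons under 3 scalings, where the filled symbol lies below the open one in MC minus NC and HFD minus NFD and above it in Uro minus HFD each time. In Uro minus NFD, not plotted, the side differed with TPM.

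Markers of hepatocytes moved in the same comparisons. Of 13 hepatocyte markers, 5 rose and 0 fell in MC minus NC, 0 rose and 2 fell in HFD minus NFD, and 10 rose and 0 fell in Uro minus HFD with a median of 1.12. Their summed level was 37038 to 66560 CPM in MC against 32745 to 51509 in NC, and 61765 to 82197 in Uro against 22051 to 43101 in HFD, with 0 of the 13 at 0. Of 13 markers of pericentral hepatocytes, which surround the central vein, 10 rose in MC minus NC, 0 in HFD minus NFD and 9 in Uro minus HFD. Their summed level was 2913 to 3516 CPM in NC, 2737 to 7172 in MC, 1973 to 3179.5 in NFD, 1196 to 3758 in HFD and 7575 to 10566 in Uro, with 0 at 0. Among 15 periportal markers, 6 are also among the 45 genes, and of the other 9, 3 fell in MC minus NC and 3 in HFD minus NFD, while 3 rose and 2 fell in Uro minus HFD. All 15 summed to 21907 to 37478 CPM in NC, 14722 to 26344 in MC, 19653 to 28382 in NFD, 11883 to 20399 in HFD and 20396 to 33156 in Uro. Macrophage markers summed to 255 to 663 CPM in HFD and 142 to 294 in NFD, and 7 of 13 rose there. Adipocyte markers summed to 50.7 to 188 CPM in MC and 4.71 to 10.8 in NC, with Adipoq and Lep at 0 in every MC library. Of all genes tested, 5.53% fell in MC minus NC and 5.96% in HFD minus NFD. In Uro minus HFD, 15.3% rose and 11.7% fell. The share of all genes that rose in MC minus NC or HFD minus NFD is not given here. Marker rises in those comparisons thus stand without a background. The part of these cell markers in the changes of the 45 genes was not tested.

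HFD replicate 2 stood apart, with the highest value of the 5 HFD libraries for 38 of the 45 genes. Without it, 32 genes fell in HFD minus NFD, and in Uro minus HFD 23 rose and 1 fell. In MC, replicate 5 had the lowest value for 32 of the 45, and without it 21 fell and 1 rose in MC minus NC.

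The upstream sequences of 3 genes show what lies before genes that moved in different ways. They are Tat and Gldc, which fell with both diets and did not rise in Uro, and Hgd, which did rise. They were picked after their values were seen, from the genes with the smallest adjusted p of each kind whose RefSeq start lies at most 30 bases inside the annotated gene. RefSeq's promoter table (GRCm38.p6) had entries for 35 of the 45. Each line gives the 250 bases before the RefSeq start, 5′ to 3′ on the gene's strand, placed by exact match in GRCm39 at chr8:110716818-110717067 (plus strand), chr19:30152842-30153091 (minus strand) and chr16:37400265-37400514 (plus strand). Capitals mark motif matches.
Tat: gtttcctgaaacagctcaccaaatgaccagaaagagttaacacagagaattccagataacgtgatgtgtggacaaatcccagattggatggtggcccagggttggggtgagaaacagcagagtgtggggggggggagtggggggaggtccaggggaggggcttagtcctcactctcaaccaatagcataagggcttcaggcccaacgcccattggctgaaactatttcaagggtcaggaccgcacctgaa
Gldc: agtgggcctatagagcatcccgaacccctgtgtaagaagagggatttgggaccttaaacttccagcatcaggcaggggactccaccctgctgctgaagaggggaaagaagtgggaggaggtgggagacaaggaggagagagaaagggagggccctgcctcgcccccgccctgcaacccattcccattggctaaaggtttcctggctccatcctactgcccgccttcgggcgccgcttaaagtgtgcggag
Hgd: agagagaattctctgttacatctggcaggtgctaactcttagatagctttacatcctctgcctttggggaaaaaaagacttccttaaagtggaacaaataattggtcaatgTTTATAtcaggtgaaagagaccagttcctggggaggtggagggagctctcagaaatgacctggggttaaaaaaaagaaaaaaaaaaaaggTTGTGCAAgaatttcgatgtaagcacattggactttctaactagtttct
Motif letters were searched on both strands. The full cyclic AMP response element was searched as TGACGTCA. Its shorter form was searched as TGACG, which lies within the full one, so that a full match counts for both. Glucocorticoid receptor letters were searched as TGTTCT. C/EBP factor letters were searched as TTGCNNAA. The TATA box was searched as TATAAA. In Hgd the capitals are a TATA box match and a C/EBP match, both on the opposite strand, and the windows of Tat and Gldc hold 0 matches. The full cyclic AMP element was found in 0 of the 35 windows and in 1.55% of all 32851 promoter windows of the same length. Its shorter form was in 2 (5.71%) against 17.8%, the glucocorticoid receptor letters in 3 (8.57%) against 16.1%, the C/EBP letters in 4 (11.4%) against 9.56%, and the TATA box in 5 (14.3%) against 12.4%. A match is a string of letters and not a site, and its absence from this window says nothing of the factor.

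The urea cycle holds 5 enzymes in sequence and Nags, which makes the activator of the first. Together the 6 genes summed to 4530 ± 547 CPM in NC, 2041 ± 402 in MC and 2612 ± 392 in UB, and to 3061 ± 815 in NFD, 1459 ± 332 in HFD and, for Uro, 1876 ± 398 (SD over 5 libraries). Their NC levels per kilobase were highest for Ass1 (1035 CPM per kb) and lowest for Nags (12.9 CPM per kb). In MC, 4 of the 6 fell, in HFD 5 fell, and in Uro 3 rose against HFD.

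Cps1 encodes carbamoyl phosphate synthetase, the mitochondrial entry step (ENSMUSG00000025991, chromosome 1, 67161988 to 67270418 in GRCm39). It was at 442, 370.2, 299, 258 and 226 CPM in NC, 179.7, 126, 184, 142 and 113 in MC and 169, 256, 135, 236 and 148 in UB. All NC libraries lay above all MC libraries, and Cps1 fell in MC by a log2 change of -1.10 ± 0.22 (edgeR adjusted p = 0.00277). In UB it was lower than in NC (-0.76 ± 0.22, adjusted p = 0.0329), a call lost in 6 of the 10 fits without 1 library (without NC replicates 1, 2 or 3 or UB replicates 1, 3 or 5). UB minus MC was 0.34 ± 0.22 (adjusted p = 0.614). Treatment-study levels were 192, 230.0, 278, 208 and 177 CPM in NFD, 103, 185, 100.01, 78.2 and 146 in HFD and 252, 175, 189, 194.5 and 309.8 in Uro. HFD values were mostly below NFD, with replicate 2 inside the NFD range, and Cps1 fell (-0.83 ± 0.24, adjusted p = 0.0254), a call lost in 5 of the 10 fits without 1 library (without NFD replicates 2 or 3 or HFD replicates 1, 3 or 4). In Uro it rose against HFD (0.87 ± 0.24, adjusted p = 0.00899), with HFD replicate 2 above Uro replicate 2, and Uro minus NFD was 0.05 ± 0.24 (adjusted p = 0.911).

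Otc, the ornithine transcarbamylase that makes citrulline (ENSMUSG00000031173, chromosome X, 10118503 to 10187265), was the 1 urea cycle gene called in none of the comparisons. Its levels were 238, 219, 225, 269.7 and 199 CPM in NC, 189.9, 228, 162, 162 and 114 in MC and 230.2, 131, 131, 125 and 151 in UB. They were 188, 229, 348, 234 and 229 CPM in NFD, 192, 254, 206, 198 and 273 in HFD and 239.8, 96.3, 113, 127 and 214 in Uro. MC minus NC was -0.43 ± 0.20 (adjusted p = 0.159), HFD minus NFD -0.13 ± 0.25 (adjusted p = 0.777) and Uro minus HFD -0.51 ± 0.25 (edgeR adjusted p = 0.138).

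Ass1, argininosuccinate synthase, joins citrulline and aspartate (ENSMUSG00000076441, chromosome 2, 31352181 to 31410862). Prevention libraries held 2001, 1797, 1780.1, 1705 and 1495 CPM in NC, 818, 709, 941, 1096 and 689 in MC and 1162, 1288, 985, 1072 and 1054 in UB. Every MC value lay below every NC value, and so did every UB value. The fall was -1.05 ± 0.19 in MC (edgeR adjusted p = 0.00117) and -0.66 ± 0.19 in UB against NC (adjusted p = 0.0302), the latter a call lost in 7 of the 10 fits without 1 library (without NC replicates 1, 2, 3 or 4 or UB replicates 3, 4 or 5). NFD held 1031, 1119, 1722, 705 and 1292 CPM, HFD 402, 726, 435, 467 and 470.3 and Uro 605, 815, 1086, 554 and 900.1. HFD overlapped NFD through HFD replicate 2 and NFD replicate 4, and the fall was -1.23 ± 0.27 (adjusted p = 0.00426). Uro minus HFD was 0.66 ± 0.26 (adjusted p = 0.0653) and was not called.

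Asl, argininosuccinate lyase, releases arginine and fumarate (ENSMUSG00000025533, chromosome 5, 130040099 to 130058088). Its levels were 873, 1022, 1053, 805 and 811 CPM in NC, 467, 294, 495, 558 and 236 in MC and 515, 913, 398, 623 and 493 in UB. NC and MC did not overlap, and Asl fell in MC (-1.15 ± 0.24, adjusted p = 0.00419 by edgeR). UB reached into the NC range with replicate 2, and UB minus NC was -0.63 ± 0.24 (adjusted p = 0.108). The treatment study gave 658, 646, 875, 451 and 394 CPM in NFD, 119, 310.1, 127, 101 and 113 in HFD and 229.8, 371, 399.7, 220.2 and 382 in Uro. No HFD library reached the NFD range, and Asl fell to 25.5% of the NFD mean (-1.97 ± 0.31, adjusted p = 0.000371), the largest fall of the 6. In Uro it rose to 52.97% of NFD (1.05 ± 0.31, adjusted p = 0.0137 against HFD) and was still lower than NFD (-0.92 ± 0.31, adjusted p = 0.0282), a call lost in 5 of the 10 fits without 1 library (without NFD replicates 1, 2 or 3 or Uro replicates 1 or 4).

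Arg1 encodes the arginase that splits arginine into urea and ornithine (ENSMUSG00000019987, chromosome 10, 24791118 to 24803817). Libraries of NC held 1424, 1519, 1308, 1259.6 and 921 CPM, of MC 412, 349.9, 471, 569 and 403 and of UB 639, 600.1, 519.9, 499 and 488. Both MC and UB lay wholly below NC, with falls of -1.54 ± 0.19 (edgeR adjusted p = 2.52e-05) and -1.23 ± 0.19 (adjusted p = 0.000383). NFD libraries held 609, 714, 1140.2, 579 and 947 CPM, HFD 316, 429, 397, 409 and 683 and Uro 336, 272, 386, 269 and 530.4. The groups overlapped through HFD replicate 5. The fall in HFD was -0.84 ± 0.26 (adjusted p = 0.0384), a call lost in 7 of the 10 fits without 1 library (without NFD replicates 2, 3 or 5 or HFD replicates 1, 2, 3 or 4). Arg1 was not called in Uro minus HFD. All Uro libraries lay below all NFD libraries, and the change was -0.32 ± 0.26 against HFD (adjusted p = 0.398) and -1.15 ± 0.26 against NFD (adjusted p = 0.00238).

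Nags, N-acetylglutamate synthase, makes the activator of the first step (ENSMUSG00000048217, chromosome 11, 102036339 to 102040303). It was at 28.7, 27.0, 19.8, 26.6 and 28.4 CPM in NC, 22.5, 16.2, 25.4, 23.0 and 8.42 in MC and 18.3, 19.5, 21.97, 15.6 and 21.2 in UB. NC replicate 3 lay inside the MC and UB ranges, and MC minus NC was -0.45 ± 0.22 (edgeR adjusted p = 0.191). In NFD it was at 22.3, 26.9, 25.9, 15.3 and 16.8 CPM, in HFD at 7.04, 14.9, 14.1, 10.4 and 9.04 and in Uro at 23.5, 24.6, 26.7, 17.4 and 23.8. All HFD libraries were below all NFD libraries, and Nags fell in HFD (-0.94 ± 0.22, adjusted p = 0.00759). All Uro libraries were above all HFD libraries, and Nags rose (1.06 ± 0.22, adjusted p = 0.00113). Its UB-NPs effect was larger in the treatment than in the prevention study by 1.02 ± 0.32 (edgeR adjusted p = 0.0294).

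**Figure D3:**
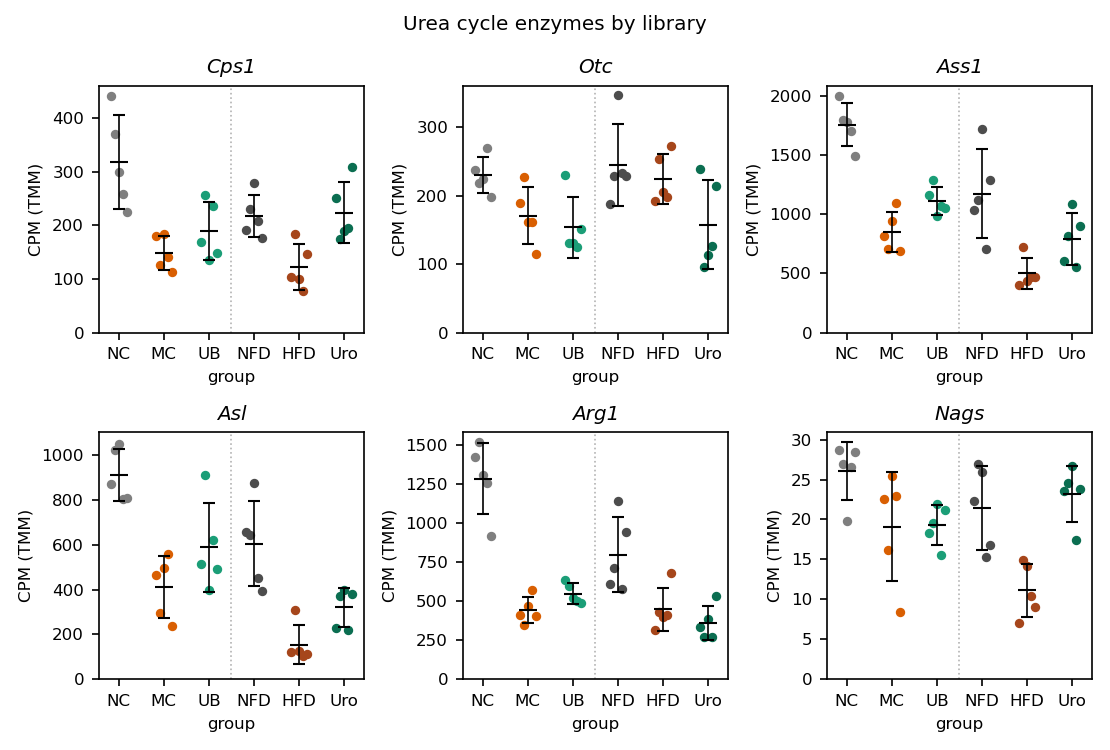
CPM of the 6 urea cycle genes in each library (points) by group, with mean and SD over 5 libraries, and a dotted line between the prevention and the treatment study, which were scaled separately. Cps1, Ass1, Asl and Arg1 lie lower in MC than in NC without overlap, and Otc overlaps between all neighbouring groups.

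Of the 6 glutamine, glutamate and transaminase genes, 2 fell in MC, 3 fell in HFD and 2 rose in Uro. Gls2, the liver glutaminase that frees ammonia from glutamine (ENSMUSG00000044005, chromosome 10, 128030316 to 128045873), fell with both diets. Its levels were 254, 204, 236, 229 and 213 CPM in NC, 99.8, 69.7, 77.8, 97.5 and 68.9 in MC and 129.6, 105, 123, 97.5 and 123 in UB. MC and UB lay wholly below NC, at -1.46 ± 0.16 (edgeR adjusted p = 6.15e-06) and -0.98 ± 0.16 (adjusted p = 0.000681). In the treatment study Gls2 was at 172, 182, 232, 166 and 202 CPM in NFD, 44.9, 83.1, 56.6, 48.6 and 65.1 in HFD and 53.1, 62.3, 63.5, 45.9 and 58.6 in Uro. HFD and Uro overlapped each other and both lay wholly below NFD, with a fall of -1.68 ± 0.20 in HFD (adjusted p = 1.72e-05). Uro minus HFD was -0.07 ± 0.19 (adjusted p = 0.808).

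Got1, the cytosolic aspartate aminotransferase (ENSMUSG00000025190, chromosome 19, 43488188 to 43513674), fell in MC and in HFD. It was at 309.7, 371, 208, 159 and 113 CPM in NC, 134, 42.7, 80.6, 99.6 and 55.4 in MC and 138, 266, 103, 152 and 114 in UB. NC and MC overlapped, since NC replicate 5 was below MC replicate 1, and the fall was -1.49 ± 0.37 (edgeR adjusted p = 0.0156). The call was lost (adjusted p = 0.119) when the highest-share library of each group was left out, the share being that of mitochondrial counts. UB minus MC was 0.91 ± 0.36 (adjusted p = 0.354). The treatment libraries held 109, 124, 183, 64.3 and 127 CPM in NFD, 24.5, 31.4, 16.9, 19.2 and 14.7 in HFD and 13.5, 49.6, 26.2, 34.4 and 37.3 in Uro. HFD lay wholly below NFD, at 17.5% of its mean, with a fall of -2.51 ± 0.32 (adjusted p = 4.48e-05). Uro also lay below NFD (-1.92 ± 0.31, adjusted p = 0.000107), and Uro minus HFD was 0.60 ± 0.30 (adjusted p = 0.153).

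Got2, the mitochondrial aspartate aminotransferase (ENSMUSG00000031672, chromosome 8, 96590760 to 96615190), did not pass the test in MC. Its levels were 341, 272, 265, 307 and 248 CPM in NC, 226, 202, 285, 323 and 155 in MC and 250.1, 193, 228, 266 and 259 in UB, overlapping throughout. In NFD it was at 203, 203, 232, 103 and 193 CPM, in HFD at 91.5, 112, 98.1, 104 and 65.3 and in Uro at 218, 255, 300.2, 230.4 and 275. It fell in HFD (-0.99 ± 0.22, adjusted p = 0.00497 by edgeR), with NFD replicate 4 within the HFD range. Every Uro library lay above every HFD library, and it rose (1.44 ± 0.22, adjusted p = 5.6e-05), and Uro minus NFD was 0.45 ± 0.22 (adjusted p = 0.124). The UB-NPs effect differed between the studies by 1.40 ± 0.29 (adjusted p = 0.000938).

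The other 3 genes of this branch were called in neither diet comparison. Gpt, a cytosolic alanine aminotransferase, went from 62.4 ± 18.9 CPM in NC to 100.3 ± 11.8 in UB and rose (0.68 ± 0.19, adjusted p = 0.0262 by edgeR), where 4.47% of all genes rose. This was a call lost in 6 of the 10 fits without 1 library (without NC replicates 1, 2, 3 or 4 or UB replicates 4 or 5). It also rose from 65.4 ± 31.8 in HFD to 126 ± 19.1 in Uro (0.94 ± 0.26, adjusted p = 0.00995). Glud1, glutamate dehydrogenase, and Gpt2, the mitochondrial alanine aminotransferase, were called in none of the comparisons, with changes of -0.58 to 0.51 for Glud1 and -0.30 to 0.40 for Gpt2.

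Tyrosine breakdown runs from Tat over Hpd and Hgd to Fah. Tat, tyrosine aminotransferase, the first step (ENSMUSG00000001670, chromosome 8, 110717063 to 110726435), fell with both diets. It was at 999.96, 1486, 947, 833 and 659.7 CPM in NC, 366, 255, 501, 482 and 189 in MC and 308, 628, 380.1, 309 and 294 in UB. MC and UB were wholly below NC, with falls of -1.46 ± 0.28 (edgeR adjusted p = 0.00234) and -1.36 ± 0.28 (adjusted p = 0.00466). In NFD it was at 345, 359.9, 443, 316 and 242 CPM, in HFD at 78.4, 121, 110.3, 65.6 and 99.7 and in Uro at 122, 180.1, 148, 102 and 146. Both HFD and Uro lay wholly below NFD, at -1.84 ± 0.23 (adjusted p = 2.81e-05) and -1.29 ± 0.22 (adjusted p = 0.000176). Uro minus HFD was 0.55 ± 0.22 (adjusted p = 0.0654).

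Hgd, homogentisate dioxygenase of the middle of this route (ENSMUSG00000022821, chromosome 16, 37400515 to 37452388), was lower in HFD and not in MC. Prevention levels were 375, 349, 382, 383 and 280.0 CPM in NC, 347, 253, 296, 398 and 218 in MC and 349, 467, 301, 356 and 341 in UB, which overlapped. Treatment levels were 208, 225, 257, 175 and 173 CPM in NFD, 75.0, 146, 86.1, 80.7 and 65.5 in HFD and 186, 279, 276, 201 and 232 in Uro. HFD was wholly below both NFD (-1.19 ± 0.22, adjusted p = 0.00142 by edgeR) and Uro (1.37 ± 0.23, adjusted p = 0.000117). The diet effect was more negative in the treatment study by -1.01 ± 0.29 (adjusted p = 0.0324), and the UB-NPs effect more positive by 1.08 ± 0.29 (adjusted p = 0.00969).

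Fah, fumarylacetoacetate hydrolase, the last step (ENSMUSG00000030630, chromosome 7, 84232788 to 84255930), was not called in MC. It was at 325, 315, 368, 374 and 489.6 CPM in NC, 415, 407, 423, 497 and 348 in MC and 379.8, 370.0, 373, 465 and 407 in UB, with a change of 0.16 ± 0.17 in MC (edgeR adjusted p = 0.594). In NFD it was at 546, 395, 466, 403 and 386 CPM, in HFD at 197, 397, 216, 234 and 239 and in Uro at 467, 451, 511, 388 and 508. HFD replicate 2 overlapped NFD and Uro, and the other 4 HFD libraries lay below both. Fah fell in HFD (-0.77 ± 0.21, adjusted p = 0.021), a call lost in 5 of the 10 fits without 1 library (without NFD replicate 1 or HFD replicates 1, 3, 4 or 5). It rose in Uro (0.86 ± 0.21, adjusted p = 0.00501). The differences between studies were -0.98 ± 0.26 for diet (adjusted p = 0.0229) and 0.90 ± 0.26 for UB-NPs (adjusted p = 0.0183). Hpd, the dioxygenase between Tat and Hgd, was called in none, with 1329 ± 214 CPM in NFD, 798 ± 427 in HFD and, for Uro, 1188 ± 332 (SD over 5 libraries).

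For tryptophan, Tdo2, the dioxygenase that opens the indole ring (ENSMUSG00000028011, chromosome 3, 81864248 to 81883509), fell in MC. It was at 436, 475, 351, 418 and 332 CPM in NC, 274, 244, 197, 192 and 96.3 in MC and 284, 247, 178, 197 and 189 in UB. MC and UB were wholly below NC, at -1.004 ± 0.22 (edgeR adjusted p = 0.00543) and -0.88 ± 0.22 (adjusted p = 0.0168), the latter a call lost in 4 of the 10 fits without 1 library (without NC replicate 2 or UB replicates 3, 4 or 5). In NFD it was at 133, 180.1, 205, 175 and 184 CPM, in HFD at 96.4, 156, 129, 93.5 and 94.2 and in Uro at 299.5, 307, 157, 167 and 254. HFD minus NFD was -0.62 ± 0.23 (adjusted p = 0.0728), and all Uro libraries lay above all HFD libraries (1.06 ± 0.23, adjusted p = 0.00157).

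Haao, 3-hydroxyanthranilate dioxygenase, a late step toward NAD (ENSMUSG00000000673, chromosome 17, 84138583 to 84155392), fell in HFD and rose in Uro. Levels were 185, 177, 196, 245 and 262 CPM in NC, 200.3, 197, 221, 274 and 148 in MC and 203, 172, 220.4, 201 and 199 in UB, overlapping. They were 266, 214, 243, 174 and 183 CPM in NFD, 101, 179, 101, 84.5 and 86.7 in HFD and 209, 239, 229, 174 and 230.2 in Uro. All but replicate 2 of HFD lay below NFD and Uro, with -0.97 ± 0.22 against NFD (edgeR adjusted p = 0.00619) and 0.97 ± 0.22 in Uro against HFD (adjusted p = 0.00232). The differences between studies were -0.98 ± 0.28 for diet (adjusted p = 0.0316) and 1.003 ± 0.28 for UB-NPs (adjusted p = 0.0125).

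Kynu, kynureninase (ENSMUSG00000026866, chromosome 2, 43445309 to 43572734), fell with both diets. It was at 71.9, 77.7, 53.8, 62.6 and 41.9 CPM in NC, 44.6, 34.6, 34.6, 35.3 and 35.0 in MC and 41.0, 37.7, 23.4, 34.0 and 27.6 in UB. NC and MC overlapped through NC replicate 5, and the falls were -0.74 ± 0.18 in MC (edgeR adjusted p = 0.0112) and -0.91 ± 0.18 in UB against NC (adjusted p = 0.00383). NFD held 34.5, 41.9, 46.4, 42.1 and 34.0 CPM, HFD 16.3, 38.3, 21.3, 23.8 and 19.7 and Uro 29.3, 23.2, 34.7, 24.7 and 33.3, with a fall of -0.74 ± 0.21 in HFD (adjusted p = 0.0252), a call lost in 6 of the 10 fits without 1 library (without NFD replicates 2 or 3 or HFD replicates 1, 3, 4 or 5). Afmid, kynurenine formamidase, fell from 81.5 ± 29.7 CPM in NFD to 35.7 ± 19.99 in HFD and was at 33.9 ± 10.7 in Uro (adjusted p = 0.0174 and 0.00499 against NFD). Its HFD call was lost without NFD replicate 3, HFD replicate 4 or HFD replicate 5, and without the highest-share library of each group (adjusted p = 0.0765). Kmo, the mitochondrial monooxygenase, was called in none, with changes of -0.61 to 0.26.

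Of 4 histidine genes, 3 fell in MC, 2 fell in HFD and 0 rose in Uro against HFD, while all 4 were lower in Uro than in NFD. Hal, histidine ammonia-lyase, the first step (ENSMUSG00000020017, chromosome 10, 93324629 to 93355166), was at 361, 324, 293, 256 and 212 CPM in NC, 97.9, 53.5, 115, 92.7 and 41.9 in MC and 85.7, 64.0, 60.3, 84.5 and 82.2 in UB. MC and UB lay wholly below NC, at -1.85 ± 0.23 (edgeR adjusted p = 3.01e-05) and -1.94 ± 0.23 (adjusted p = 2.8e-05). NFD held 161, 164, 232, 142 and 176 CPM, HFD 30.9, 106, 40.9, 36.1 and 46.9 and Uro 71.1, 53.8, 40.8, 30.1 and 74.0, both wholly below NFD. The fall was -1.74 ± 0.31 in HFD (adjusted p = 0.000888), and Uro minus HFD was 0.05 ± 0.30 (adjusted p = 0.929).

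Uroc1, urocanate hydratase, the next step (ENSMUSG00000034456, chromosome 6, 90310266 to 90341740), was at 163, 129, 147, 150.2 and 149 CPM in NC, 84.8, 69.0, 77.5, 96.0 and 92.1 in MC and 83.5, 50.3, 76.0, 87.0 and 80.6 in UB. It fell in MC (-0.82 ± 0.16, adjusted p = 0.00286 by edgeR) and UB (-0.97 ± 0.16, adjusted p = 0.000985 against NC), both wholly below NC. NFD held 149, 150.3, 193, 282 and 154 CPM, HFD 104, 221, 108, 105 and 169 and Uro 121, 87.1, 90.3, 78.5 and 108. HFD overlapped NFD (-0.39 ± 0.24, adjusted p = 0.303), while Uro lay below NFD (-0.94 ± 0.24, adjusted p = 0.00641).

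Amdhd1, imidazolonepropionase, the third step (ENSMUSG00000015890, chromosome 10, 93359198 to 93375895), was at 135, 114, 116, 112 and 105 CPM in NC, 70.6, 49.0, 71.9, 57.3 and 43.5 in MC and 57.0, 53.7, 32.9, 50.1 and 55.3 in UB. MC and UB were wholly below NC, with -0.99 ± 0.18 (edgeR adjusted p = 0.00117) and -1.22 ± 0.18 (adjusted p = 0.000192). NFD held 153, 110.0, 146, 156 and 91.9 CPM, HFD 57.4, 109.6, 49.98, 44.97 and 57.9 and Uro 65.1, 45.9, 56.2, 36.7 and 60.8. Amdhd1 fell in HFD (-1.04 ± 0.24, adjusted p = 0.00746), where replicate 2 reached the NFD range, and Uro minus HFD was -0.27 ± 0.24 (adjusted p = 0.431). Ftcd, the last step, was called in Uro minus NFD alone, at 254 ± 120.2 CPM in NFD and 95.1 ± 15.3 in Uro (-1.42 ± 0.30, adjusted p = 0.00132). Summed over the branch, histidine genes were at 55.2% of NFD in HFD and 40.1% in Uro.

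Among the glycine and serine genes, Gldc was lower with diet and lower again with UB-NPs in both studies. Its protein is the decarboxylase of the mitochondrial glycine cleavage system (ENSMUSG00000024827, chromosome 19, 30071975 to 30152871). It was at 82.3, 63.3, 62.6, 57.0 and 26.9 CPM in NC, 24.7, 19.5, 29.2, 25.8 and 13.1 in MC and 10.4, 7.77, 6.19, 10.1 and 8.88 in UB. Every UB library lay below every MC library, and MC overlapped NC through NC replicate 5. The falls were -1.38 ± 0.25 in MC (edgeR adjusted p = 0.00134), -1.38 ± 0.25 in UB against MC (adjusted p = 0.011) and -2.75 ± 0.26 in UB against NC (adjusted p = 2.35e-06). UB thus had 14.9% of the NC mean. In the treatment study it was at 36.4, 39.9, 47.9, 29.7 and 41.8 CPM in NFD, 13.6, 16.0, 17.0, 16.5 and 15.1 in HFD and 11.8, 6.85, 11.7, 8.61 and 11.9 in Uro. The 3 groups did not overlap, with falls of -1.32 ± 0.19 in HFD (adjusted p = 0.00013) and -0.62 ± 0.19 in Uro against HFD (adjusted p = 0.0172). The latter call was lost without HFD replicate 3, Uro replicate 2 or Uro replicate 4. The UB-NPs effects of the studies differed by 0.73 ± 0.32 (adjusted p = 0.134), which was not called. With TPM in place of counts, as deposited or rescaled, Gldc was not called in UB minus MC. Its Uro minus HFD change with the deposited TPM was 0.31.

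Sds, serine dehydratase, which makes pyruvate from serine (ENSMUSG00000029597, chromosome 5, 120614585 to 120621997), was at 169, 213, 194.9, 186 and 192 CPM in NC, 66.5, 35.3, 81.9, 81.5 and 65.7 in MC and 107, 130.0, 111, 102 and 86.7 in UB. The 3 groups did not overlap, with UB between the others. Sds fell in MC (-1.53 ± 0.19, adjusted p = 2.82e-05 by edgeR) and in UB against NC (-0.83 ± 0.19, adjusted p = 0.00911), and UB minus MC was 0.69 ± 0.19 (adjusted p = 0.107). NFD held 121, 144, 195.2, 99.5 and 164 CPM, HFD 34.5, 95.9, 32.7, 26.4 and 39.4 and Uro 43.9, 47.1, 62.6, 33.2 and 42.7. HFD and Uro lay wholly below NFD, at -1.66 ± 0.30 (adjusted p = 0.00103) and -1.66 ± 0.30 (adjusted p = 0.000272).

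Agxt, the peroxisomal aminotransferase that turns glyoxylate into glycine (ENSMUSG00000026272, chromosome 1, 93062962 to 93073143), was at 239.9, 194, 177, 188 and 153 CPM in NC, 134, 81.0, 113, 139 and 48.4 in MC and 88.3, 103, 79.0, 100.2 and 111 in UB. MC and UB lay wholly below NC, at -0.88 ± 0.22 (edgeR adjusted p = 0.0114) and -0.98 ± 0.22 (adjusted p = 0.00792). NFD held 86.7, 136, 136, 102 and 88.1 CPM, HFD 33.5, 63.9, 37.6, 24.5 and 27.7 and Uro 54.8, 79.4, 87.0, 63.0 and 85.6. HFD was wholly below NFD (-1.55 ± 0.24, adjusted p = 0.000353), and Agxt rose in Uro (0.98 ± 0.24, adjusted p = 0.00434), with HFD replicate 2 inside the Uro range. The UB-NPs effect differed between the studies by 1.06 ± 0.34 (adjusted p = 0.0315).

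Sdsl, a serine dehydratase-like gene, was low, at 15.9 ± 5.85 CPM in NC and 6.36 ± 1.65 in MC, and fell in MC, UB and HFD (-1.32 ± 0.28, -1.60 ± 0.28 and -1.39 ± 0.28). It rose in Uro against HFD (0.83 ± 0.28, adjusted p = 0.0297 by edgeR), a call lost without HFD replicate 4, HFD replicate 5 or Uro replicate 3. Gcsh and Amt belong to the same cleavage system as Gldc. Gcsh, its lipoyl carrier, went from 38.4 ± 12.7 CPM in NFD to 21.7 ± 3.30 in HFD and 38.3 ± 4.59 in Uro, falling (-0.82 ± 0.22, adjusted p = 0.016) and rising (0.82 ± 0.22, adjusted p = 0.00721). The call of its fall was lost without HFD replicate 5 and without the highest-share library of each group (adjusted p = 0.0645). Amt, the aminomethyltransferase, was lower in Uro than in NFD alone (-0.61 ± 0.19, adjusted p = 0.0218), at 16.7 ± 2.98 and 25.4 ± 5.27 CPM, a call lost in 3 of the 10 fits without 1 library (without NFD replicate 3 or Uro replicates 2 or 4).

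**Figure D4:**
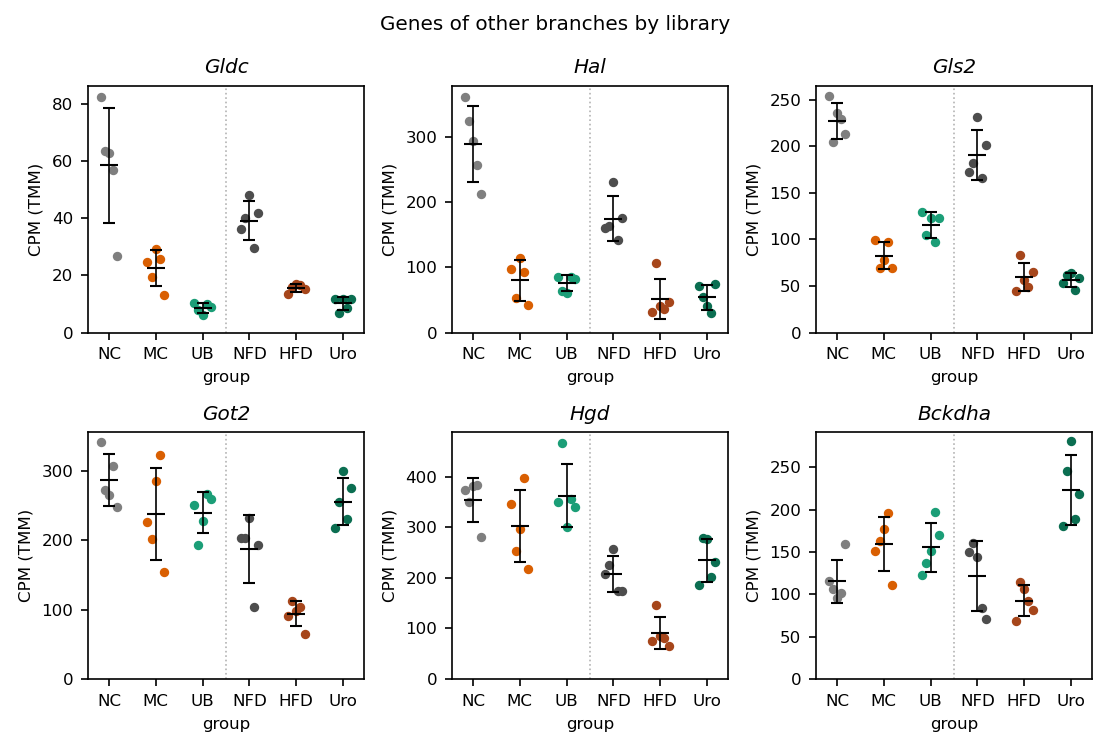
CPM of 6 genes in each library (points) by group, with mean and SD over 5 libraries, and a dotted line between the separately scaled studies. Hal and Gls2 are low in both high-fat groups of each study, Gldc is lowest in UB and Uro, and Got2, Hgd and Bckdha are higher in Uro than in HFD without overlap.

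Sulfur and methyl group genes make S-adenosylmethionine, use its methyl group and turn homocysteine into cysteine. Of these 8, 6 fell in MC, 5 fell in HFD, and 4 rose in Uro. Cth, cystathionine gamma-lyase, which frees cysteine (ENSMUSG00000028179, chromosome 3, 157599868 to 157630739), was at 707, 674, 563, 429 and 301 CPM in NC, 192, 102, 175, 158 and 90.6 in MC and 225, 246, 107, 225 and 166 in UB. MC and UB lay wholly below NC, at -1.90 ± 0.27 (edgeR adjusted p = 0.000161) and -1.47 ± 0.26 (adjusted p = 0.0019). NFD held 169, 187, 322, 144 and 159 CPM, HFD 33.5, 99.2, 62.3, 45.2 and 52.5 and Uro 89.5, 76.7, 85.1, 63.7 and 123. HFD and Uro lay wholly below NFD, at -1.74 ± 0.28 (adjusted p = 0.000371) and -1.16 ± 0.27 (adjusted p = 0.00299).

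Cbs, cystathionine beta-synthase, the step before (ENSMUSG00000024039, chromosome 17, 31827868 to 31856646), was at 252, 249.7, 262, 234 and 184 CPM in NC, 136, 117, 158, 175 and 96.0 in MC and 108, 134, 127, 114 and 136 in UB. MC and UB lay wholly below NC, at -0.79 ± 0.17 (edgeR adjusted p = 0.00516) and -0.93 ± 0.17 (adjusted p = 0.00211). NFD held 172, 182, 174, 216 and 154 CPM, HFD 54.8, 84.5, 59.4, 51.5 and 59.6 and Uro 74.2, 122, 117, 72.2 and 72.1. HFD lay wholly below NFD (-1.54 ± 0.21, adjusted p = 8.23e-05), and Cbs rose in Uro (0.56 ± 0.21, adjusted p = 0.0459), a call lost in 6 of the 10 fits without 1 library (without HFD replicates 1, 3, 4 or 5 or Uro replicates 2 or 3). The Uro call was also lost with RLE factors, no low-count filter, a replicate block or mitochondrial genes removed (edgeR adjusted p of 0.0566, 0.0535, 0.0576 and 0.0513). It was lost without the highest-share library of each group and with the share as a covariate (0.13 and 0.945), and with rescaled TPM the change was -0.0589.

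Gnmt, glycine N-methyltransferase, which disposes of surplus methyl groups (ENSMUSG00000002769, chromosome 17, 47036587 to 47040107), was at 714, 613, 569, 689 and 555 CPM in NC, 339, 249.6, 224, 486 and 111 in MC and 545, 526, 467, 483 and 343 in UB. It fell in MC (-1.15 ± 0.26, adjusted p = 0.00677 by edgeR), wholly below NC, and UB minus NC, also without overlap, was -0.41 ± 0.26 (adjusted p = 0.369). NFD held 358, 312, 530.3, 189.6 and 449.9 CPM, HFD 71.1, 112, 62.1, 41.9 and 27.4 and Uro 102, 355, 123, 97.9 and 182. HFD lay wholly below NFD at 17.1% of its mean (-2.55 ± 0.41, adjusted p = 0.000627). Gnmt rose in Uro (1.45 ± 0.40, adjusted p = 0.0107), most in replicate 2, and was lower there than in NFD (-1.10 ± 0.39, adjusted p = 0.0421), a call lost in 8 of the 10 fits without 1 library (without NFD replicates 1, 2, 3 or 5 or Uro replicates 1, 3, 4 or 5).

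The other 5 genes of this branch are given by group. Mat1a, the liver's methionine adenosyltransferase, was called in none, at 3735 ± 444 CPM in NC and 2579.8 ± 579 in MC. Ahcy, which splits S-adenosylhomocysteine, fell in MC (-0.75 ± 0.21, adjusted p = 0.0205 by edgeR, lost without NC replicate 2) and HFD (-1.20 ± 0.26, adjusted p = 0.00412) and was lower in Uro than in NFD (-0.76 ± 0.26, adjusted p = 0.0302), a call lost in 5 of the 10 fits without 1 library (without NFD replicates 3 or 5 or Uro replicates 1, 3 or 4). Bhmt, which remethylates homocysteine with betaine, was the most abundant of the 45 per kilobase in NC (1733 CPM per kb). It fell in MC (-0.85 ± 0.26, adjusted p = 0.0324), a call lost in 8 of the 10 fits without 1 library (without NC replicates 1, 2, 3 or 4 or MC replicates 1, 2, 3 or 5), and in UB against NC (-1.44 ± 0.26, adjusted p = 0.00169). In Uro, Bhmt was at 566 to 1027 CPM in 4 libraries and at 3246 in replicate 5. Of the mitochondrial enzymes that take up the methyl groups, Dmgdh fell in MC (-0.77 ± 0.21, adjusted p = 0.0215, lost without NC replicate 1), UB against NC (-1.05 ± 0.21, adjusted p = 0.00418) and HFD (-1.19 ± 0.22, adjusted p = 0.00125). It rose in Uro against HFD (0.73 ± 0.22, adjusted p = 0.0155, lost without Uro replicate 5). Sardh, its neighbour in the pathway, rose in Uro from 194 ± 66.0 to 351 ± 51.1 CPM (0.85 ± 0.25, adjusted p = 0.0136). The UB-NPs effects of Dmgdh and Sardh differed between the studies by 0.98 ± 0.31 and 1.04 ± 0.33 (edgeR adjusted p = 0.0308 and 0.0301).

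Proline, lysine and branched-chain genes were not called in either diet comparison. In MC minus NC and HFD minus NFD, edgeR called 0 of 6, with an unadjusted p under 0.05 for 2 and 1 of them, and all 6 changes were above 0 in MC (0.02 to 0.62) and below 0 in HFD (-0.71 to -0.03). Bckdha, a subunit of the branched-chain ketoacid dehydrogenase (ENSMUSG00000060376, chromosome 7, 25326168 to 25358420), was at 116, 106, 95.2, 102 and 159 CPM in NC, 152, 163, 177, 196 and 111 in MC and 123, 137, 151, 197 and 170.2 in UB. NFD held 149.6, 161, 144, 83.8 and 71.2 CPM, HFD 69.1, 114, 106, 92.2 and 81.2 and Uro 181, 246, 280.5, 189 and 219. All Uro libraries lay above all NFD and HFD libraries, and Bckdha rose by 1.27 ± 0.24 against HFD (edgeR adjusted p = 0.000409) and 0.87 ± 0.23 against NFD (adjusted p = 0.00791). Its UB-NPs effect was larger than in the prevention study by 1.28 ± 0.30 (adjusted p = 0.00376). With rescaled TPM the change against HFD was -0.10. Bckdhb, the partner subunit, was called in none and was at 37.3 ± 23.2 CPM in HFD and 32.5 ± 10.4 in Uro.

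Aldh4a1, which finishes proline breakdown (ENSMUSG00000028737, chromosome 4, 139350146 to 139377003), was at 129.9, 80.5, 74.0, 100.2 and 95.003 CPM in NC, 119, 90.6, 88.7, 129 and 59.1 in MC and 131, 123, 141, 148 and 136 in UB. NFD held 104, 93.7, 101, 74.1 and 69.6 CPM, HFD 52.4, 99.6, 73.8, 52.1 and 60.0 and Uro 123, 155, 102, 99.6 and 118. It rose in Uro against HFD (0.82 ± 0.21, adjusted p = 0.0057 by edgeR), and HFD replicate 2 lay above Uro replicate 4. Prodh, proline dehydrogenase (ENSMUSG00000003526, chromosome 16, 17877575 to 17908067), was at 40.8, 31.4, 54.2, 36.8 and 121 CPM in NC, 87.0, 97.1, 74.7, 87.3 and 90.3 in MC and 77.9, 74.8, 109.7, 114 and 103 in UB. It was at 99.6, 87.7, 121, 104 and 49.4 CPM in NFD, 82.6, 151, 74.2, 49.6 and 96.0 in HFD and 112, 105, 76.8, 83.1 and 122 in Uro, and it was called in none. NC replicate 5 was far above the other NC libraries. Prodh2, which acts on hydroxyproline, and Aass, the first lysine enzyme, were also called in none, with changes of -0.71 to 0.78 and -0.56 to 0.06.

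The 45 genes divided further by how Uro compared with the diet effect. Of the 19 lower in both MC and HFD, 7 were higher in Uro than in HFD (Cps1, Asl, Sdsl, Agxt, Gnmt, Cbs and Dmgdh) and 12 were not (Ass1, Arg1, Gls2, Got1, Tat, Kynu, Hal, Amdhd1, Sds, Gldc, Ahcy and Cth). A missed call does not show that those 12 were unchanged. Against NFD, 17 of the 45 were lower in Uro, where 12.3% of all genes were, and 1, Bckdha, was higher, where 16.1% were. With TPM, 0 were lower in Uro than in NFD and 1 was lower in UB than in NC. Against NC, 18 were lower in UB, where 3.33% of all genes were, and these 18 were among the 22 lower in MC, with which they share the NC libraries. Over the 45 genes, group means in HFD ran from 17.1% to 117% of NFD with a median of 56.0%, and in Uro from 26.0% to 183% with a median of 72.8%. In MC they ran from 26.8% to 154% of NC with a median of 68.7%, and in UB from 14.9% to 171% with a median of 69.3%.

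**Figure D5:**
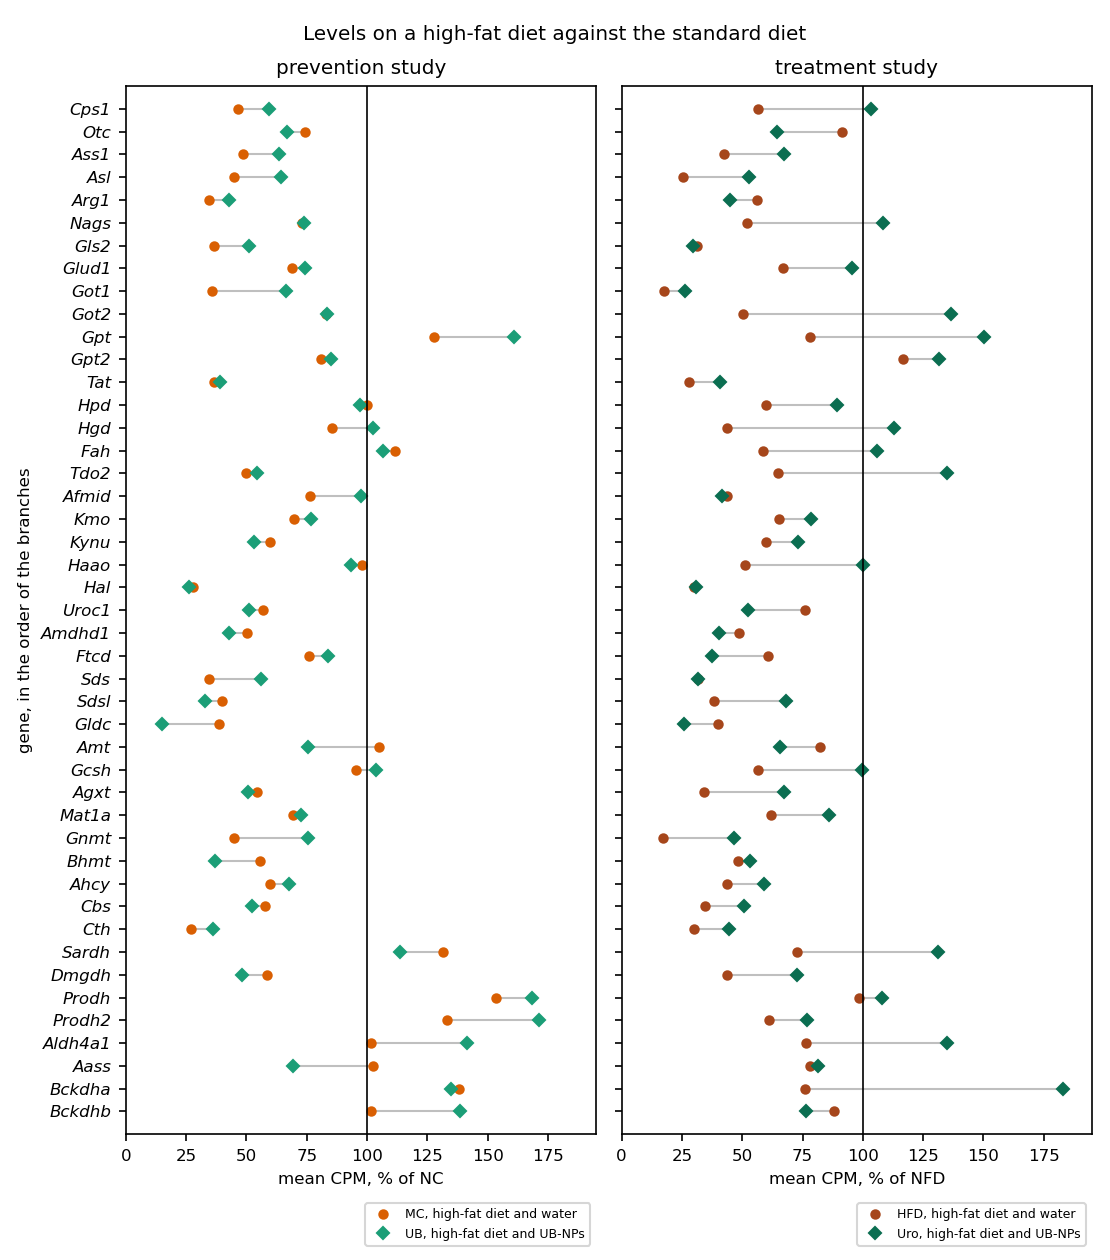
Mean CPM of each of the 45 genes as a percentage of the standard-diet group (vertical line at 100%), for MC and UB against NC on the left and for HFD and Uro against NFD on the right. Uro lies to the right of HFD for most genes, and to its left for Arg1, Otc, Gls2, Gldc, Uroc1, Amdhd1 and Ftcd among others.

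By compartment, which is textbook knowledge added to the list, 17 of 25 cytosolic and 4 of 19 mitochondrial enzymes fell in MC, and 18 of 25 and 7 of 19 in HFD. In Uro minus HFD, 9 of 25 cytosolic and 8 of 19 mitochondrial enzymes rose. Of all genes tested, 5.53% fell in MC minus NC, 5.96% fell in HFD minus NFD and 15.3% rose in Uro minus HFD. The counts by compartment are descriptions without a test.

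Differences between the studies were tested in 1 fit of 30 libraries. The diet effect was more negative in the treatment study for 3 of the 45 genes, Hgd, Fah and Haao, where 3.42% of all 14784 genes tested were. The UB-NPs effect was more positive in the treatment study for 9 (Nags, Got2, Hgd, Fah, Haao, Agxt, Sardh, Dmgdh and Bckdha), where 8.54% of all genes were. With the mitochondrial share as a covariate, 0 of these 12 differences were called. With rescaled TPM the calls lay on the other side. The diet effect was then more positive in the treatment study for 7 and more negative for 0. The UB-NPs effect was more positive there for 0 and more negative for 17. Hgd, Fah and Haao lost their diet calls with no turn of direction. In this setting the median of all genes was 0.50 for the diet difference and -0.70 for the UB-NPs difference. The median of the 45 lay -0.11 and 0.14 from these, on the same sides as with TMM. Of the 20 fits without 1 library, the diet difference was lost in 11 for Hgd (without NC replicate 2 or MC replicates 1, 3 or 4 or NFD replicates 1, 2 or 3 or HFD replicates 1, 3, 4 or 5), 11 for Haao (without NC replicates 1, 2 or 3 or MC replicates 3 or 4 or NFD replicates 1 or 3 or HFD replicates 1, 3, 4 or 5) and 2 for Fah (without MC replicate 4 or NFD replicate 1). The UB-NPs difference was lost in 10 for Agxt (without MC replicates 1, 3 or 4 or UB replicates 1 or 3 or HFD replicates 1, 4 or 5 or Uro replicates 3 or 5), 8 for Sardh (without MC replicates 3 or 4 or UB replicates 1 or 3 or HFD replicates 1, 4 or 5 or Uro replicate 5), 7 for Nags (without MC replicates 1, 3 or 4 or UB replicate 4 or HFD replicates 1 or 5 or Uro replicate 3) and 7 for Dmgdh (without MC replicates 3 or 4 or UB replicates 2 or 3 or HFD replicates 1 or 5 or Uro replicate 5).

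Beyond the 45, 63 other enzymes of amino acid metabolism were listed, of which 61 were tested. In MC, 8 of them fell and 4 rose, in HFD 25 fell and 0 rose, and in Uro 26 rose and 3 fell against HFD. For this list and those that follow, 5.53% of all genes fell in MC minus NC and 5.96% in HFD minus NFD. In Uro minus HFD, 15.3% of all genes rose and 11.7% fell. The share of all genes that rose with either diet is not given here. Etnppl, a phospholyase of phosphoethanolamine, fell in MC (-2.77 ± 0.39, adjusted p = 0.000665) with Acmsd of tryptophan breakdown (-1.19 ± 0.24, adjusted p = 0.00286), while Glul, glutamine synthetase of pericentral cells, rose (0.96 ± 0.19, adjusted p = 0.00234). In HFD, Kyat3, Gcat and Qdpr fell (-1.64 ± 0.24, -1.50 ± 0.24 and -1.42 ± 0.23). In Uro, the sulfurtransferases Mpst and Tst, and Grhpr, the glyoxylate reductase, rose (1.53 ± 0.19, 1.76 ± 0.27 and 1.44 ± 0.22).

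Of 26 transport genes, 23 were tested in the prevention study, of which 4 rose and 3 fell in MC, and 24 in the treatment study, of which 1 rose and 5 fell in HFD and 6 rose in Uro. Slc25a15, the ornithine carrier of the urea cycle, fell in HFD (-0.79 ± 0.18, adjusted p = 0.00702). Car5a, the mitochondrial carbonic anhydrase that supplies bicarbonate to Cps1, fell in HFD (-1.30 ± 0.30, adjusted p = 0.00686). Slc1a2, a glutamate transporter, Aqp9, a channel for glycerol and urea, and Slc16a10, an aromatic amino acid transporter, rose in MC (1.64 ± 0.27, 1.02 ± 0.20 and 0.97 ± 0.23). Slc7a8 rose in HFD (2.32 ± 0.51, adjusted p = 0.00574), and Rhbg, an ammonia transporter, Slc6a13 and Aqp9 rose in Uro (2.79 ± 0.55, 0.93 ± 0.24 and 0.90 ± 0.24).

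Of 15 regulators, 1 rose and 2 fell in MC, 0 rose and 2 fell in HFD, and 1 rose and 2 fell in Uro. With 15.3% of all genes higher and 11.7% lower in Uro minus HFD, the regulator counts there do not stand out. Creb3l3, a liver transcription factor, rose in MC (0.85 ± 0.17, adjusted p = 0.00343) and in Uro (0.67 ± 0.24, adjusted p = 0.0427). Klf15, an activator of amino acid catabolism, and Foxo1, a target of insulin signalling, fell in MC (-0.65 ± 0.20, adjusted p = 0.0374 and -0.63 ± 0.18, adjusted p = 0.0282). Ppara and Sirt3 fell in HFD (-1.09 ± 0.22 and -0.89 ± 0.21), and Cebpb and Ppargc1a fell in Uro (-0.81 ± 0.21 and -1.15 ± 0.34). Among 16 listed genes of serine synthesis and targets of ATF4, the factor of the amino acid response, Psph rose and Cebpg fell in MC (1.23 ± 0.39, adjusted p = 0.042 and -0.76 ± 0.19, adjusted p = 0.0128). Of the 13 genes of this list tested there, 1 rose and 1 fell. In HFD, 3 of 15 tested rose, which were Atf3, Nupr1 and Trib3 (2.96 ± 0.57, 1.44 ± 0.36 and 1.06 ± 0.30). Another 1 fell and 11 were not called. In Uro minus HFD, 0 of these 15 rose and 0 fell.

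Of 11 measured gluconeogenesis genes, which use the carbon of amino acids, 2 fell and 1 rose in MC, 4 fell and 1 rose in HFD, and 8 rose and 1 fell in Uro. Pck1, which starts the path from oxaloacetate, fell in MC (-1.02 ± 0.21, adjusted p = 0.00397) and Fbp1 fell in MC and HFD (-0.94 ± 0.23 and -1.76 ± 0.27). Slc2a2, the liver glucose transporter, rose in MC and HFD (1.10 ± 0.24 and 1.28 ± 0.23), while Mdh1 fell in HFD (-1.38 ± 0.23). In Uro, Mpc2, a subunit of the mitochondrial pyruvate carrier, Pgm1 and Mdh1 rose (2.05 ± 0.23, 1.56 ± 0.19 and 1.53 ± 0.23). For genes outside the 45, these directions rest on TMM scaling.

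The authors' deposited table of calls names 14 of the 45 genes as lower in MC minus NC and 19 as lower in HFD minus NFD. For UB minus MC the authors' deposited table names 1, also lower. Of 7 named in Uro minus HFD, all are higher in the authors' deposited table. In the authors' deposited table, 9 are lower in UB minus NC and 13 in Uro minus NFD. Each of these was called here in the same direction except Bhmt in HFD minus NFD. The share of all genes that the authors called is not given here, so their counts have no background. Their rule for a call is not given here either and may differ. Both sets of calls come from the same libraries, so their match is not independent evidence.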

How the data were processed

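Liver RNA of 30 libraries was sequenced as stranded poly(A) paired-end libraries, per the labels' protocols. The authors deposited expected counts and TPM per gene, and a table of their DESeq2 calls. The submitters' processing notes name the build GRCm39 and the tools StringTie, HISAT2, DESeq2 and fastp, without versions or roles. The deposited expected counts were rounded to whole numbers, since 4.02 to 7.03% of a library's counts were not whole. Library totals were 17.0 to 24.3 M counts, and 3.14 to 19.7 M outside mitochondrial genes. This leaves at least 32 counts for any of the 45 genes in any library.

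Each study was fitted alone in edgeR 4.0.16 (R 4.3.3) with filterByExpr, TMM factors and robust quasi-likelihood F-tests, with Benjamini-Hochberg adjustment over all genes tested. A call needs an adjusted p under 0.05. Differences between studies were interaction terms in 1 fit of 30 libraries. Each standard error was obtained by dividing the size of the log2 change by √F. The deposited TPM were tested as log2(TPM + 1) with limma 3.58.1, and DESeq2 1.42.0 was run on the rounded counts. Fold changes on the log2(TPM + 1) scale understate changes of low genes. The mitochondrial share counts 37 mitochondrial genes and 6 nuclear copies. The edgeR fit was tested on simulated data.

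Groups came from the labels. Same-numbered libraries in different groups correlated by -0.237 to 0.211 in their deviations, so the numbers do not pair them. No per-sample column was left unmapped, and no 2 libraries of a group were identical among 60 pairs.

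The members, the other gene lists and the tests were chosen with earlier results of these data known. Values in every library are given for the 6 urea cycle genes and for the 3 genes of each other branch with the smallest adjusted p, every other called gene is named, and up to 3 genes of each other list are named per comparison. A gene of the regulator list is not reported here and is left out of its counts. Promoter letters came from RefSeq (GRCm38.p6) and gene positions from GENCODE M39 on GRCm39.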

Additional observations from a re-analysis of the deposited data

Results flagged for a closer look

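Values that stood apart in a group of 5 libraries were searched for over 270 groups (45 genes in 6 groups). A library was marked where its gap to the nearest of the others exceeded 0.71 of the group's range. For normally distributed values in independent groups, chance does this in about 1 of 20 groups, or 13.5 here. The 45 genes share the same libraries and the distribution of CPM was not checked. The number of marks thus cannot be tested against 13.5. In all, 32 were marked, and 16 of them were HFD replicate 2, each time the highest of the 5. Its CPM were 726 for Ass1, 310.1 for Asl, 122 for Gpt, 1559 for Hpd, 146 for Hgd, 397 for Fah, 70.6 for Afmid, 114 for Kmo, 179 for Haao, 106 for Hal, 109.6 for Amdhd1, 297 for Ftcd, 95.9 for Sds, 84.5 for Cbs, 219 for Prodh2 and 78.6 for Bckdhb.

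The highest value of its group stood apart for Otc in UB replicate 1 at 230.2 CPM, Otc in NFD replicate 3 at 348 CPM, Gpt2 in NFD replicate 3 at 320.3 CPM, Tat in UB replicate 2 at 628 CPM, Kynu in MC replicate 1 at 44.6 CPM, Ftcd in NFD replicate 4 at 463 CPM and Sdsl in NC replicate 3 at 26.1 CPM. The highest value of its group stood apart for Sdsl in Uro replicate 3 at 9.63 CPM, Mat1a in NC replicate 1 at 4514 CPM, Bhmt in Uro replicate 5 at 3246 CPM, Cth in NFD replicate 3 at 322 CPM, Prodh in NC replicate 5 at 121 CPM and Aass in Uro replicate 5 at 147 CPM. The lowest value of its group stood apart for Nags in NC replicate 3 at 19.8 CPM, Gpt in NFD replicate 5 at 45.7 CPM and Amdhd1 in UB replicate 3 at 32.9 CPM.

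Some effects differed between the prevention and the treatment study by the interaction term of the 30-library edgeR fit. The diet effect differed by a log2 change of -1.01 for Hgd, -0.98 for Fah and -0.98 for Haao, more negative in the treatment study. The UB-NPs effect differed by 1.02 for Nags, 1.40 for Got2, 1.08 for Hgd, 0.90 for Fah, 1.00 for Haao, 1.06 for Agxt, 1.04 for Sardh, 0.98 for Dmgdh and 1.28 for Bckdha, more positive in the treatment study. Among fits without 1 of the 20 libraries concerned, the diet differences of Hgd and Haao were lost in 11 and that of Fah in 2. The UB-NPs differences of Agxt, Sardh, Nags and Dmgdh were lost in 10, 8, 7 and 7. The mitochondrial share of counts differed by -5.96 points in UB minus MC and by -47.4 points in Uro minus HFD, and its part in these differences cannot be told apart from that of UB-NPs.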

How the results depend on the processing

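Counts of called genes among the 45 changed with scaling, with the mitochondrial covariate and, for the differences between studies, with single libraries. TPM with limma gave 7 in MC minus NC, 0 in UB minus MC, 3 in HFD minus NFD, 36 in Uro minus HFD and 0 for the diet difference between studies. Rescaled TPM, chosen after seeing the data, gave 29 in Uro minus NFD (all lower), 7 for the diet difference between studies (all higher, against 3 lower with TMM) and 17 for the UB-NPs difference (all lower, against 9 higher with TMM). DESeq2 gave 3 in UB minus MC and 5 for the diet difference. With the mitochondrial share as a covariate, 10 were called in UB minus NC and 0 in Uro minus HFD, Uro minus NFD and both differences between studies. When the highest-share library of every group was left out, the diet difference had 7. Leaving out each library gave 20 to 25 in MC minus NC, 1 to 2 in UB minus MC, 15 to 23 in UB minus NC, 21 to 32 in HFD minus NFD, 17 to 24 in Uro minus HFD, 14 to 19 in Uro minus NFD, 0 to 13 for the diet difference and 5 to 14 for the UB-NPs difference. A fit with a replicate block, though the numbers do not pair the libraries, gave 24, 1, 21, 26, 18, 18, 4 and 10 in the same order. RLE factors, removal of mitochondrial genes, no low-count filter and 1 fit of 30 libraries kept every one of these counts within 1.5 times.

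Log2 changes of single genes turned direction under 3 settings, for which the cause was not tested beyond the shift of all genes. Only genes called with TMM or under the other setting are listed. Turns of genes called in neither were left out. With TPM, the change in UB minus NC was 0.27 for Cps1, 0.39 for Ass1, 0.0269 for Gls2, 0.78 for Got2, 0.77 for Gpt2, 0.97 for Hpd, 0.18 for Tdo2, 0.99 for Afmid, 0.14 for Kynu, 0.97 for Haao, 0.0487 for Uroc1, 0.71 for Ftcd, 0.26 for Sds, 0.62 for Amt, 0.0869 for Agxt, 0.0751 for Cbs and 0.0148 for Dmgdh. With TPM, the change in Uro minus HFD was 1.01 for Gls2, 1.01 for Afmid and 0.31 for Gldc. With TPM, the change in Uro minus NFD was 0.88 for Ass1, 0.65 for Asl, 0.31 for Arg1, 1.15 for Glud1, 0.17 for Tat, 1.23 for Hpd, 0.21 for Afmid, 1.14 for Kmo, 0.84 for Kynu, 0.72 for Hal, 0.54 for Uroc1, 0.14 for Amdhd1, 0.28 for Ftcd, 0.72 for Sdsl, 0.75 for Amt, 1.45 for Gcsh, 1.06 for Agxt, 1.23 for Mat1a, 0.26 for Gnmt, 0.72 for Ahcy, 0.62 for Cbs, 0.76 for Cth, 0.96 for Dmgdh, 1.09 for Prodh2 and 1.13 for Aass. With rescaled TPM, the change in Uro minus HFD was -0.57 for Gpt2, -0.0872 for Haao, -0.0589 for Cbs and -0.0974 for Bckdha. With rescaled TPM, the change in Uro minus NFD was -0.57 for Haao and -0.20 for Bckdha. With rescaled TPM, the change in the UB-NPs difference between studies was -0.83 for Ass1, -0.96 for Gpt2, -0.0289 for Hgd, -0.0943 for Fah, -1.05 for Kmo, -0.25 for Haao, -0.89 for Amt, -0.15 for Agxt, -0.66 for Mat1a, -0.80 for Ahcy, -0.0582 for Dmgdh, -0.71 for Aldh4a1 and -0.13 for Bckdha. With a mitochondrial share covariate, the change in Uro minus HFD was -0.29 for Asl, -0.34 for Nags, -0.36 for Sardh and -0.20 for Bckdha. With a mitochondrial share covariate, the change in Uro minus NFD was -0.63 for Bckdha. With a mitochondrial share covariate, the change in the UB-NPs difference between studies was -0.46 for Nags, -0.0504 for Agxt and -0.0926 for Sardh.

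Of the calls, 18 of 22 in MC minus NC, 20 of 26 in HFD minus NFD and 15 of 19 in Uro minus HFD were kept in every count-based setting without the covariate, library by library included. With the covariate and both TPM settings added, 3 were kept in MC minus NC (Arg1, Gls2 and Cth). In HFD minus NFD 3 were kept (Got1, Tat and Gnmt), and in Uro minus HFD 0. Without the highest-share library of each group, calls were lost for Got1, Bhmt and Dmgdh in MC minus NC, Cps1 in UB minus NC, Arg1, Afmid and Gcsh in HFD minus NFD, Gldc and Cbs in Uro minus HFD, and Amt and Ahcy in Uro minus NFD. With no low-count filter, they were lost for Ass1 in UB minus NC, Gldc and Cbs in Uro minus HFD, Amt, Gnmt and Ahcy in Uro minus NFD, and Fah for the diet difference. In 1 fit of 30 libraries, they were lost for Bhmt in MC minus NC and for Ass1 and Gpt in UB minus NC. Cbs in Uro minus HFD was also lost with RLE factors, a replicate block and mitochondrial genes removed. Depth outside mitochondrial genes ran from 3.14 to 19.7 M counts, and the shallower libraries limit precision more.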
